A study of Homo sapiens with 7 samples.

Results

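The miR-181 family was described in 7 cell lines derived from the human tumor line MDA-MB-435-GFP, which stably carries green fluorescent protein. The L1-R2 group held 3 oligometastatic lines (4T, 3T and 8T) and the L1Mic-R2 group held 4 polymetastatic lines (2T, 3T, 7T and 8T). L1-R1 cells, recovered from visible lung metastases, and L1Mic-R1 cells, recovered from the part of the same lung without them, were reinjected into the tail vein of athymic female mice, and each line used here was grown under G418 selection from the lung of a distinct animal. All 7 lines go back to the same parental cells and share the same selection. The 3 L1-R2 lines descend from L1-R1 and the 4 L1Mic-R2 lines from L1Mic-R1, so that this parent line cannot be told apart from the group. RNA from each line was run on a single TaqMan Human MicroRNA Array A card. Members were chosen by the name of the assay. Of 381 assays on each card, 377 for human microRNAs, 2 belonged to the family, namely miR-181a and miR-181c, and both were measured in 1 well per card. The family was picked with its difference between the groups already known, so that this difference is given below as a description and without a test.

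MicroRNAs are short RNAs that guide Argonaute proteins to messenger RNAs, mainly through the seed near their 5′ end, and thereby lower the output of the target. The miR-181 family is known for its part in lymphocyte development, where miR-181a tunes the strength of T cell receptor signaling, and it has been linked to TGF-beta signaling and to invasion in tumors. Members with the same seed are predicted to share most of their targets.

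The mature sequences, taken from RefSeq, are printed to show what the assays of the card have in common. Bases 2 to 8, the seed, are in capitals.

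miR-181a-5p (measured): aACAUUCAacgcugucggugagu

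miR-181c-5p (measured): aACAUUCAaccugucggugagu

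miR-181b-5p (not analysed here): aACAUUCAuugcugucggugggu

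miR-181d-5p (not analysed here): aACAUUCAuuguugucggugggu

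The 4 sequences shared their first 8 bases. The sequence of miR-181c equaled that of miR-181a without the base at position 11, counted from the 5′ end, whereas miR-181b differed from miR-181a by 3 single-base changes and miR-181d by 4. Among all 2370 mature sequences of the RefSeq table, 5 had this seed, and the fifth was miR-4262, which was not among the assays analysed. Whether the assay of either member also reads the other was not tested.

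On GRCh38.p14 the mature miR-181a is encoded at chr1:198859108-198859130 on the minus strand (MIR181A1) and at chr9:124692480-124692502 on the plus strand (MIR181A2), within the long noncoding RNA genes MIR181A1HG and MIR181A2HG. The products of both loci are identical, so that the assay cannot tell them apart. MiR-181c is encoded at chr19:13874725-13874746 on the plus strand (MIR181C). The miR-181b hairpins lie 61 bases from MIR181A1 and 1158 bases from MIR181A2, and that of miR-181d lies 66 bases from MIR181C, where the distance is the number of bases between the annotated hairpins.

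MiR-181a was detected in every line, and was lower in the polymetastatic lines. Each well gives a threshold cycle (Ct), reached when its fluorescence passes 0.3, and 1 cycle later means 1 log2 unit less RNA. In L1-R2 miR-181a had a raw Ct of 31.17 (4T), 31.83 (3T) and 31.46 (8T). In L1Mic-R2 it had a raw Ct of 34.43 (2T), 33.76 (3T), 33.47 (7T) and 33.85 (8T). The groups did not overlap, and 1.63 cycles separated the latest L1-R2 line from the earliest L1Mic-R2 line. On raw Ct the groups were without overlap, in either direction, for 37 of the 181 microRNAs with a Ct below 38 in at least 3 lines. Group means were 31.49 ± 0.34 cycles (SD, n = 3) for L1-R2 against 33.88 ± 0.40 cycles (SD, n = 4) for L1Mic-R2. The log2 difference of L1Mic-R2 minus L1-R2 was -2.39 (standard error 0.31). If each cycle doubles the product, this is a level 5.24-fold lower in L1Mic-R2.

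MiR-181c, transcribed from another chromosome, showed the same direction near the limit of the assay. In L1-R2 its raw Ct came at 35.93 (4T), 36.55 (3T) and 36.78 (8T). In L1Mic-R2 it came at 39.32 (2T), 38.99 (3T) and 39.11 (7T), and the well of line 8T was Undetermined, which the files list as 40. All L1-R2 lines were thus below 38, the limit used to call a microRNA detected, and no L1Mic-R2 line was. Group means were 36.42 ± 0.44 cycles (SD, n = 3) for L1-R2 against 39.35 ± 0.45 cycles (SD, n = 4) for L1Mic-R2, with 40 entered for line 8T. The log2 difference was -2.93 (standard error 0.35). Since 40 is a placeholder and not a measured cycle, the level of line 8T has only an upper bound.

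**Figure D1:**
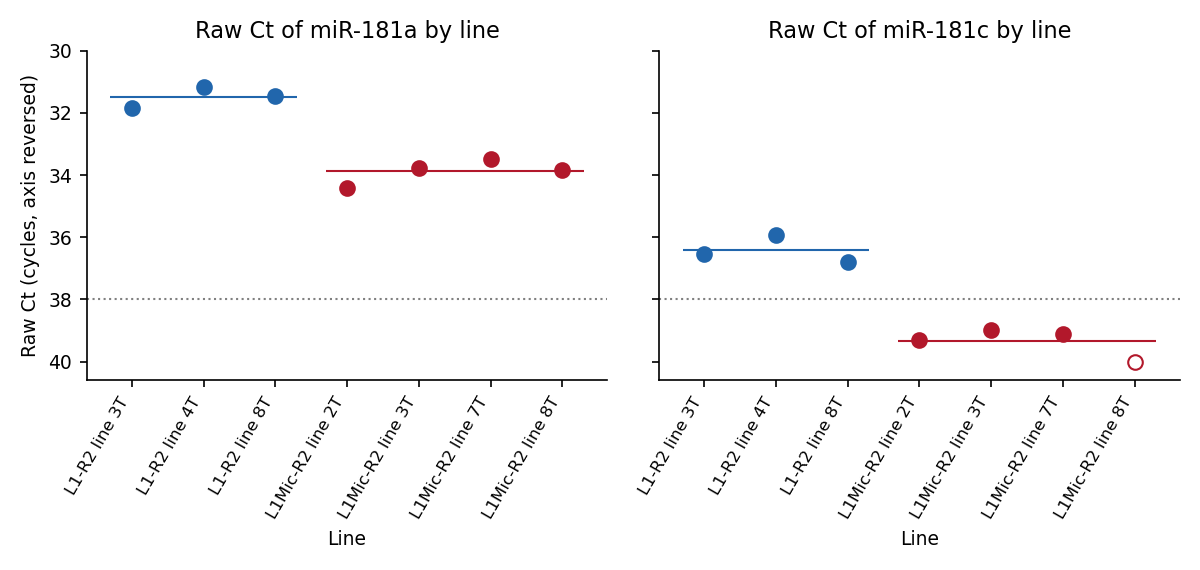
Raw Ct of miR-181a (left) and miR-181c (right) in cycles on a reversed axis, so that more RNA is higher, for the 3 L1-R2 lines (blue) and the 4 L1Mic-R2 lines (red). Horizontal lines are group means, the dotted line is the detection limit of 38 and the open point is the Undetermined well, listed as 40. For both members every L1-R2 line lies above every L1Mic-R2 line, and the L1Mic-R2 lines cross the detection limit for miR-181c only.

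The deposited fluorescence of the wells showed how close to the threshold miR-181c was read. This value, which carries no unit, was above 0.3 in each well with a Ct and below it in each of the 1371 Undetermined wells out of 2688. For miR-181a the L1-R2 wells ended at 1.34 (4T), 1.24 (3T) and 1.29 (8T), and the L1Mic-R2 wells at 0.715 (2T), 0.779 (3T), 1.18 (7T) and 0.848 (8T). For miR-181c the L1-R2 wells ended at 0.627, 0.550 and 0.570 in the same order. The L1Mic-R2 wells of miR-181c ended at 0.344 (2T), 0.364 (3T) and 0.350 (7T), barely past the threshold, whereas that of 8T reached 0.119. The groups did not overlap in either member, but for miR-181a the L1-R2 well of 3T (1.24) lay close to the L1Mic-R2 well of 7T (1.18). How many other assays are without overlap in this value was not counted. The fluorescence comes from the same wells as the Ct and is no independent measurement.

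**Figure D2:**
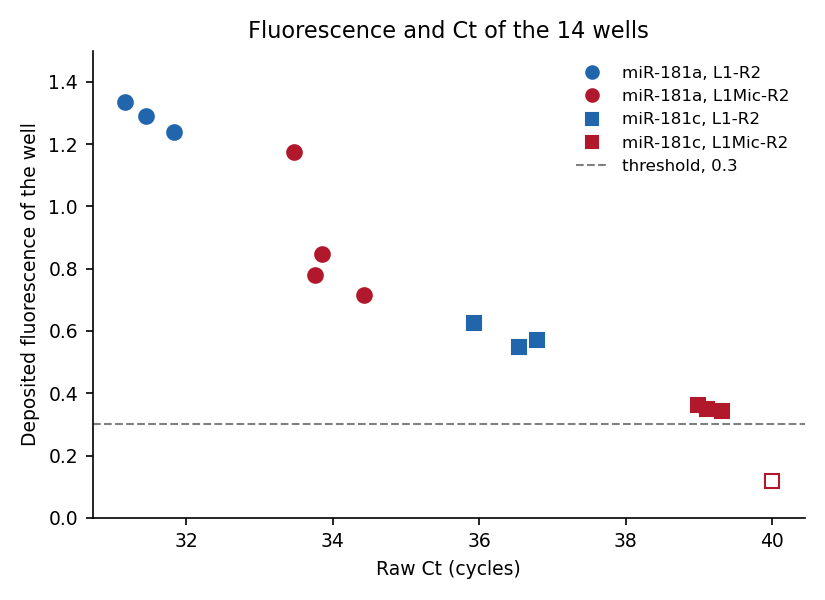
Deposited fluorescence of the well (no unit) against raw Ct in cycles for miR-181a (circles) and miR-181c (squares) in the L1-R2 (blue) and L1Mic-R2 (red) lines, 14 wells in all. The dashed line is the threshold of 0.3, and the open square is the Undetermined well of L1Mic-R2 line 8T at 0.119. The other 3 L1Mic-R2 wells of miR-181c lie between 0.344 and 0.364, just above the threshold.

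On each card miR-181a came before miR-181c by a similar number of cycles. In L1-R2 miR-181c trailed miR-181a by 4.77 (4T), 4.71 (3T) and 5.33 cycles (8T). In L1Mic-R2 it trailed by 4.89 (2T), 5.23 (3T) and 5.64 cycles (7T), and by 6.15 in 8T with its placeholder. The groups overlapped, with means of 4.94 ± 0.34 (SD, n = 3) for L1-R2 against 5.48 ± 0.54 (SD, n = 4) for L1Mic-R2, and 5.25 ± 0.37 over the 3 L1Mic-R2 lines with a Ct. The difference between the groups was 0.54 cycles (standard error 0.36), and 0.32 cycles over the lines with a miR-181c Ct. The values spanned 1.44 cycles over all lines, with the placeholder of 8T at the top, and 0.93 cycles over the lines with a miR-181c Ct. Because assays can differ in efficiency, the delay between them is not a ratio of the molecules present. After quantile normalization the sign of this difference turned (-0.27, standard error 0.78).

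**Figure D3:**
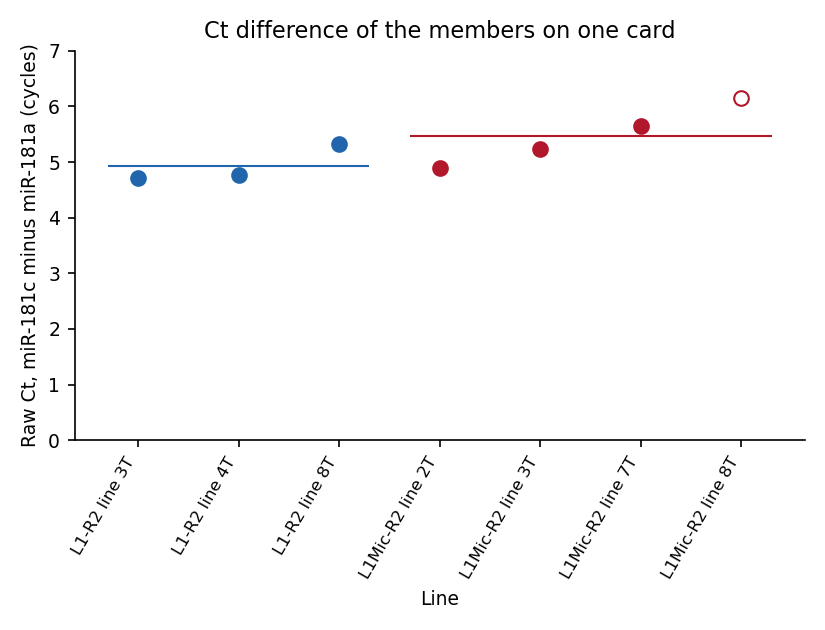
Raw Ct of miR-181c minus raw Ct of miR-181a on the same card, in cycles, for the 3 L1-R2 lines (blue) and the 4 L1Mic-R2 lines (red), with group means as horizontal lines. The open point is L1Mic-R2 line 8T, where miR-181c was Undetermined. The values run from 4.71 to 6.15 and the groups overlap.

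The control RNAs differed less between the groups than the members did. U6, a spliceosomal RNA, had a raw Ct of 16.32 ± 0.32 (SD, n = 3) for L1-R2 against 16.38 ± 0.28 (SD, n = 4) for L1Mic-R2. The small nucleolar RNAs were later in L1Mic-R2, with 24.69 ± 0.96 against 25.58 ± 0.34 for RNU44 and 19.83 ± 0.88 against 20.55 ± 0.39 for RNU48. The median log2 difference of the 181 microRNAs with a Ct below 38 in at least 3 lines was -0.25 on raw Ct. Relative to U6, miR-181a was at 15.17 ± 0.087 cycles (SD, n = 3) for L1-R2 against 17.50 ± 0.42 (SD, n = 4) for L1Mic-R2. MiR-181c relative to U6 was at 20.10 ± 0.25 and 22.98 ± 0.19 cycles. With U6 subtracted the 3 L1-R2 lines thus spanned only 15.07 to 15.24 cycles for miR-181a, whereas the L1Mic-R2 lines spanned 17.08 to 18.06. A digit deposited with each card, read here as its number, ran from 1 to 3 for L1-R2 and from 4 to 7 for L1Mic-R2. Whether it gives the order of the runs is not known, and it cannot be told apart from the group.

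The size of the difference depended on the normalization, and its direction did not. The study used quantile normalization, which gives each card the same distribution of Ct. On that scale the log2 difference of L1Mic-R2 minus L1-R2 was -2.0 (standard error 0.32) for miR-181a and -1.73 (standard error 0.58) for miR-181c. The normalized Ct of miR-181a was 31.65 ± 0.38 (SD, n = 3) for L1-R2 against 33.65 ± 0.47 (SD, n = 4) for L1Mic-R2, and the fold was 3.99. That of miR-181c was 37.17 ± 0.81 and 38.89 ± 0.83, and the gap between its groups narrowed from 2.20 cycles on raw Ct to 0.11. Other references for miR-181a gave -2.33 (U6), -1.59 (average of RNU44 and RNU48) and -2.16 (average over the microRNAs found in every line). For miR-181c they gave -2.88, -2.13 and -2.70. The median of all microRNAs tested moved with the scale as well, from -0.19 with U6 to 0.56 with RNU44 and RNU48. Each of these 3 references subtracts a single value per card, which shifts every microRNA and the median alike. On the raw and these 3 scales miR-181a therefore lay 2.14 and miR-181c 2.69 below the median by construction, which is no separate support.

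**Figure D4:**
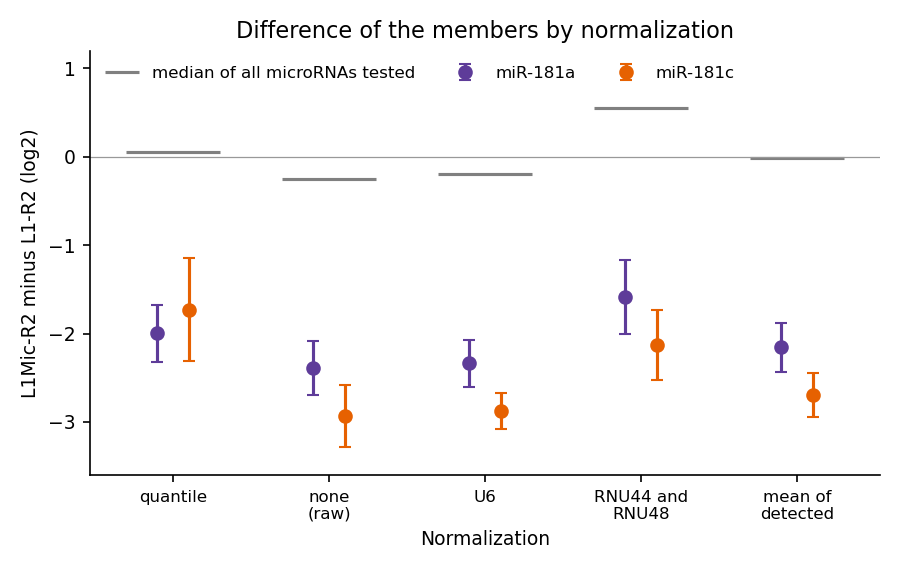
Log2 difference of L1Mic-R2 minus L1-R2 for miR-181a (purple) and miR-181c (orange) under 5 normalizations, with bars of 1 standard error from limma, and the median of all 181 microRNAs tested (grey). Both members lie below the median on each scale, and miR-181c moves most, from -2.93 on raw Ct to -1.73 after quantile normalization. Apart from the quantile scale, the distance to the median is the same on each scale by construction.

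For reference, the same comparison was run with limma over all 181 microRNAs tested, and 9 of them, or 4.97%, had an adjusted p under 0.05 (Benjamini-Hochberg), with 3 lower in L1Mic-R2 (1.66%) and 6 higher (3.31%). This split moved with the scale, with 3 of 6 higher on raw Ct, 1 of 8 relative to U6 and 5 of 10 relative to the average of the detected microRNAs. The number called lay between 0 and 4 when a line was omitted, with 0 without L1-R2 line 3T, L1-R2 line 8T or L1Mic-R2 line 2T. Groups did not overlap in 19.3% of the microRNAs tested, and 10.5% were without overlap and lower in L1Mic-R2, as both members were. A log2 fold change of -2 or lower was seen in 5.52%, and from the lowest upward miR-181a was number 11 and miR-181c number 14. MiR-181c entered the test only through the 3 L1-R2 lines, and it alone, 0.552% of those tested, was below 38 in each L1-R2 line and in no L1Mic-R2 line. As the family was picked from this contrast, no call is given for either member and nothing is read from these positions. Within the groups the members were not unusually steady. The pooled SD of miR-181a, 0.44, exceeded that of 44.8% of the microRNAs tested and that of miR-181c, 0.82, exceeded 65.7%.

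**Figure D5:**
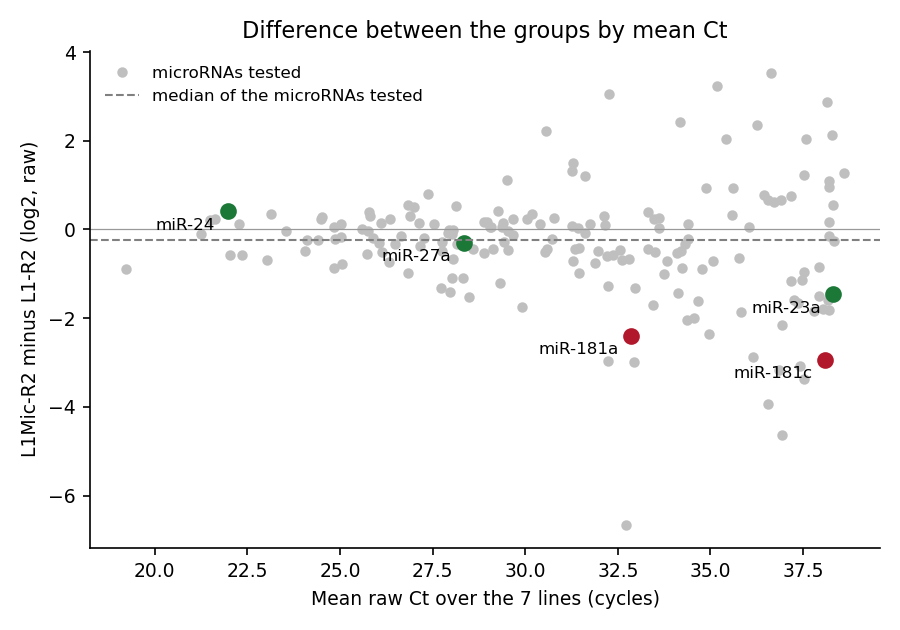
Raw log2 difference of L1Mic-R2 minus L1-R2 against the mean raw Ct over the 7 lines, in cycles, for the 181 microRNAs tested (grey), with miR-181a and miR-181c in red and the chromosome 19 neighbours of miR-181c in green. The dashed line is the median of -0.25. The spread widens above a Ct of about 35, where miR-181c and miR-23a lie.

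Besides its own hairpin partner, miR-181c has the miR-23a, miR-27a and miR-24-2 hairpins as neighbours on chromosome 19, which are made from one transcript and of which the nearest lies 38039 bases away. None of these 3 passed the adjusted threshold. MiR-24, which also has a locus on another chromosome, differed by 0.38 in log2 (standard error 0.22, limma adjusted p = 0.396), and by 0.27 to 1.21 under the alternatives, with 1.21 relative to RNU44 and RNU48 and 0.64 without L1-R2 line 3T. MiR-27a differed by 0.22 (standard error 0.28, limma adjusted p = 0.721), a sign that turned on raw Ct (-0.30), relative to U6 (-0.24) and relative to the average of the detected microRNAs (-0.062). MiR-23a differed by -0.44 (standard error 1.23, limma adjusted p = 0.842), was detected in 3 of the 7 lines only, and turned to 0.050 without L1Mic-R2 line 8T. On raw Ct the group means were 22.21 and 21.80 for miR-24 and 28.17 and 28.47 for miR-27a, in L1-R2 and L1Mic-R2.

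Other lists hold microRNAs of the pathways and lineages in which the family is studied. Of 8 microRNAs known to be induced through TGF-beta, among them miR-23a and miR-24, 5 were tested. Of these 1 was called lower and none higher, against 1.66% and 3.31% of all microRNAs tested. The log2 fold change was negative in 3 of the 5 and positive in 2. The 1 called lower was miR-192, an abundant microRNA of kidney and gut that TGF-beta raises in some cells and lowers in others. Its raw Ct was 28.96 (4T), 29.15 (3T) and 28.68 (8T) among the L1-R2 lines, all earlier than the 31.05 (2T), 30.42 (3T), 30.11 (7T) and 31.07 (8T) of the L1Mic-R2 lines. It fell by 1.51 on the log2 scale (standard error 0.26, limma adjusted p = 0.0392), and the call was lost in 6 of the 7 fits that left out a line, the exception being L1Mic-R2 line 7T, and with RNU44 and RNU48 (limma adjusted p = 0.283), without a detection filter (0.0754) and with the line number of the labels (0.431) or of the file names (0.318) as a block. The highest value of the list was that of miR-155, an immune microRNA (0.56, standard error 0.27, limma adjusted p = 0.294). The median of the list was -0.30, against 0.058 for all microRNAs tested, and turned to 0.28 relative to RNU44 and RNU48.

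Of 8 microRNAs known to be lowered through TGF-beta, from the miR-29 and miR-200 families, 7 were tested and 0 passed, against 4.97% of all microRNAs tested. All 7 had a negative log2 fold change, from -0.25 for miR-29b (standard error 0.20, limma adjusted p = 0.566) to -1.80 for miR-429 (standard error 1.54, limma adjusted p = 0.572). Their median was -1.21, against 0.058 for all microRNAs tested, and 1 of the 7 was without overlap between the groups. MiR-200a was below 38 in 2 L1-R2 and 2 L1Mic-R2 lines only, and miR-429 in 2 L1-R2 lines and 1 L1Mic-R2 line. MiR-429 moved to -2.87 without L1-R2 line 3T, to -4.13 with the block by file name number and to 0 with Ct limited to 35. Relative to RNU44 and RNU48 only 4 of the 7 were negative, since miR-29a (0.24), miR-29b (0.39) and miR-29c (0.25) turned. Of 7 lymphoid and myeloid microRNAs, chosen since miR-181a is studied mostly in these lineages, 5 were tested and 0 passed. Their median was 0, which was -0.89 on raw Ct. This 0 is the value of miR-146a, which held the same place in the order of Ct on every card. Quantile normalization therefore gave it the same Ct, 19.23, in all lines, so that the 0 does not show an unchanged level. On raw Ct its group means were 18.72 for L1-R2 and 19.61 for L1Mic-R2. The 5 tested ran from -3.35 for miR-150, a lymphocyte microRNA (standard error 1.31, limma adjusted p = 0.22), to 3.07 for miR-223, a granulocyte microRNA (standard error 1.26, limma adjusted p = 0.245). MiR-223 was late in every line, with its lowest raw Ct at 35.35, and of 17 alternatives it passed in 1, without L1Mic-R2 line 7T, where it was Undetermined (log2 fold change 4.19, limma adjusted p = 0.00254).

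The microRNAs most like each member over the 7 lines were named by the Pearson correlation of normalized Ct, among those detected in all lines. For miR-181a, compared with 133 others, these were miR-29c (r = 0.951), miR-192 (r = 0.944), miR-660 (r = 0.933), miR-425 (r = 0.920) and miR-508-3p (r = 0.919). For miR-181c they were miR-509-3-5p (r = 0.835), miR-26a (r = 0.832), let-7g (r = 0.756), miR-10a (r = 0.724) and miR-16 (r = 0.684). Quantile normalization gave miR-29c, and likewise miR-16, the same Ct in all 3 L1-R2 lines, although on raw Ct their SD there was 0.43 and 0.40. Their r therefore depends in part on the normalization. The lines fall into 2 groups and both microRNAs of a pair were read on the same card, so that such a correlation carries the difference between the groups and that between cards. When the group means were removed first, the closest to miR-181a were miR-363 (r = 0.964), miR-625 (r = 0.952) and miR-582-5p (r = 0.939), none of which is in the first list. For miR-181c these were miR-140-3p (r = 0.873), miR-10a (r = 0.805) and miR-19a (r = 0.789). The members themselves had r = 0.672 on normalized Ct and r = 0.958 on raw Ct. Within the groups it was -0.251 on normalized Ct, and 0.571 on raw Ct in the 6 lines with a Ct for miR-181c. None of these values carries a test.

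MDA-MB-435 was long used as a breast line, while its expression is that of a melanoma. All 7 tested melanocyte markers had a negative log2 fold change, except that miR-204 turned to 0.074 relative to RNU44 and RNU48. Their median was -0.95, against 0.058 for all microRNAs tested. Groups did not overlap in 3 of the 7, against 19.3% of all microRNAs tested. The summed level of the 8 on the card, on a log2 scale above a Ct of 40, ran from 15.0 to 15.6 in L1-R2 and from 13.9 to 14.8 in L1Mic-R2. Of the 7 tested 1 was called lower, against 1.66% of all microRNAs tested. This was miR-509-3-5p (-2.71, standard error 0.53, limma adjusted p = 0.0392), a call lost in 15 of 18 alternatives (limma adjusted p from 0.0167 to 0.54), among them each of the 7 that left out a line. MiR-211, the defining marker, had a raw Ct between 27.49 and 30.56 in L1-R2. In L1Mic-R2 it was at 29.00 in line 7T and 33.33 in line 3T and was Undetermined in 2T and 8T, so that the groups overlapped, and it did not pass (log2 fold change -6.57, limma adjusted p = 0.267). The summed level of 7 epithelial markers ran from 7.36 to 10.3 in L1-R2 and from 5.35 to 8.30 in L1Mic-R2. MiR-200b and miR-200c were below 38 in every line, whereas miR-205 was Undetermined throughout. The 4 epithelial markers tested had a median log2 fold change of -1.33, and 0 passed. Blood markers, 7 on the card, ran from 5.74 to 6.94 in L1-R2 and from 0, where no marker had a Ct, to 5.99 in L1Mic-R2, with miR-451 Undetermined in all lines. MiR-150 was below 38 in 3 L1-R2 and 2 L1Mic-R2 lines, and miR-223 in 1 L1-R2 and 3 L1Mic-R2 lines. These 2 were the blood markers tested, and they differed in opposite directions (-3.35 and 3.07) without passing. The level of the endothelial marker miR-126 on this scale ran from 4.94 to 7.54 in L1-R2 and from 7.59 to 11.3 in L1Mic-R2 (log2 fold change 3.44, standard error 0.98, limma adjusted p = 0.104). Of 6 fibroblast and muscle markers, 5 were below 38 in no line, including miR-143 and miR-145. The remaining marker, miR-199a-3p, had a Ct of 35.88 in L1-R2 line 8T and of 36.08 and 36.19 in L1Mic-R2 lines 2T and 7T. In the other lines it was Undetermined, and it did not pass (log2 fold change 0.39, limma adjusted p = 0.895). The part of these cell types, and of the number of microRNAs detected (172 to 184 in L1-R2 and 160 to 172 in L1Mic-R2), in the difference of the miR-181 members was not tested. From RNA of whole cultures, fewer cells with a microRNA and less of it per cell cannot be told apart.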

How the data were processed

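The RNA of 3 L1-R2 and 4 L1Mic-R2 lines was run on TaqMan cards, 1 for each line. Per well the authors deposited a Ct and an average Ct, in cycles on a log2 scale before normalization, with the threshold at 0.3. A column without a header was taken as the deposited fluorescence intensity of the well, since it separates wells with and without a Ct at the threshold in all 2688 wells. Each line has the group and number of its label. In the file names the L1-R2 numbers 3T and 4T are swapped, which leaves the group as it is. An injection into the mammary fat pad is given in the labels and a tail vein injection in the methods of the study, which were followed. The labels also mention SYBR where the study gives TaqMan, and the study was followed here too.

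Ct values of 381 assays were quantile normalized with limma 3.58.1 in R 4.3.3, with Undetermined wells at 40. MicroRNAs below 38 in at least 3 lines were fitted by lmFit and eBayes as 40 minus Ct, and p-values were adjusted over all 181 by Benjamini-Hochberg. The members, lists, markers and the rule for the microRNAs named were chosen with earlier results of these data known. Named were the members, the controls, all microRNAs of a list of 3, otherwise those called and the highest and lowest of each list, and those most like a member. The listed miR-146b was read as miR-146b-5p. The markers miR-144, miR-509-3p and miR-514 had no assay of that name among those analysed. Alternatives were other normalizations, Ct limits of 38 and 35, other detection filters, trend and robust options, a replicate block and leaving out each line. In 50 simulations with the spread of the real lines, 70.8% of 20 microRNAs changed by 3 on the log2 scale were called, with 4.47% false calls. With 1 card for a line, biological and measurement error cannot be separated, and the 3 and 4 cards limit the precision. The fits took the lines of a group as independent, although they descend from the same parent line.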

Additional observations from a re-analysis of the deposited data

Results flagged for a closer look

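In the 4 L1Mic-R2 lines, 11 results were searched for a line far from the others, where chance gives about 1 in 20. The normalized Ct of miR-429 stood apart in line 7T, which alone had a Ct, so that its gap was the whole range (ratio of gap to range 1). The normalized Ct of miR-223 stood apart in line 7T as well, where the well was Undetermined (ratio 0.944). Neither member of the miR-181 family had such a line.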

How the results depend on the processing

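The log2 difference of miR-181a stayed negative and moved by less than its SD under all 15 alternatives, from -2.39 on raw Ct to -1.57 with the replicate block, and from -2.24 to -1.74 when lines were left out in turn. That of miR-181c, -1.73 after quantile normalization, was -2.93 on raw Ct, -2.88 relative to U6, -2.70 relative to the average of the detected microRNAs, -1.03 once Ct was limited to 38, the detection limit, and 0 once it was limited to 35, a limit below each of its values, and lay between -2.19 and -1.29 when lines were left out in turn. The log2 ratio of miR-181a to miR-181c, -0.27 after quantile normalization, turned to 0.54 on raw Ct, 0.13 with the replicate block and 0.25 with a block by file name number, an alternative chosen after seeing the data. Limiting Ct to 38 gave -0.97 and to 35 gave -1.99, and leaving lines out in turn gave -0.72 to 0.25, positive without L1-R2 line 8T (0.11) and without L1Mic-R2 line 2T (0.25). The cause was not tested. No direction is given for this ratio.

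The number of microRNAs called at an adjusted p under 0.05, 9, became 0 with RNU44 and RNU48 (37 unadjusted), 14 with those detected in all 7 lines, 0 without a detection filter (36 unadjusted), 21 with trend and robust, 0 with the replicate block (19 unadjusted) and 0 with the block by the file names (27 unadjusted), against 35 unadjusted in the fit reported. Without one line they ran from 0 to 4, with 28 to 39 unadjusted, namely 2 without L1-R2 line 4T, 0 without 3T and 0 without 8T, and 0 without L1Mic-R2 line 2T, 1 without 3T, 4 without 7T and 3 without 8T. The share of higher ones among them was 66.7%, against 50% on raw Ct, 12.5% relative to U6 and 50% relative to the average of the detected microRNAs. The number whose groups did not overlap, 35, ran from 30 to 50 over its 15 alternatives. Of the listed microRNAs, 1 was called, against 2 with U6, 2 with Ct limited to 35, 3 with trend and robust, 0 with RNU44 and RNU48, without a detection filter and with either block, and from 0 to 2 without one line. MiR-23a reversed to 0.84 with the block by the file names and to 0.050 without L1Mic-R2 line 8T (from -1.22 to 0.050 when lines were left out in turn), miR-27a to -0.30 on raw Ct, -0.24 relative to U6 and -0.062 relative to the average of the detected microRNAs, and miR-29b to 0.39 with RNU44 and RNU48.

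Numbers 3T and 8T are found in either group, but same-numbered lines did not deviate together (correlation of their deviations over microRNAs -0.0441 and -0.197, and 0.0191 for lines 3T by the file names), so that the numbers were not treated as a pairing. The precision of miR-181c is limited by its late Ct.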
